A study of Mus musculus with 6 samples.

Results

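Interferon stimulated genes were followed in 344SQ, a line of mouse lung cancer cells, with and without forced expression of a microRNA cluster. The set was given as 34 gene symbols, and a member was measured where a probe set of the array carries that symbol alone. That held for 31 of the 34, out of 18193 genes on the array. Isg15, Oas1g and Ifi44 were not analysed here. Each gene is represented by the probe set with the highest mean over the 6 arrays. A further 17 probe sets of 11 members were counted separately, and some of them are described.

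The compared groups were 344SQ cells transduced with a lentivirus carrying miR-200b-200a-429 (called miR-200 A, B and C) and 344SQ cells transduced with the control vector (control A, B and C). All 6 cultures share a K-rasLA1 allele and a p53R172H∆g allele from the mouse of origin, growth in RPMI 1640 with serum, and puromycin selection of GFP-positive pools. The line is a mass population from a subcutaneous tumor of 1 mouse, and 3 cultures of each group were measured on 1 array each. Nothing in the labels says that the 3 cultures of a group came from separate transductions, so the spread behind each p-value may be technical. Both groups carry a lentiviral insertion, and no array of untransduced cells was analysed here.

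Type I interferons bind the receptor IFNAR, whose kinases JAK1 and TYK2 activate STAT factors. STAT2 joins IRF9 in a complex that binds the interferon-stimulated response element of many promoters, while interferon gamma acts largely through the gamma-activated site. The induced proteins sense viral RNA, block translation or virus assembly, and feed back on the pathway. Epithelial tumor cells can express them at a low level without added interferon.

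The transduced microRNAs are shown because they are the only intended difference between the groups. Their mature forms lie on the minus strand of chromosome 4 in GRCm38.p6 (sequences from RefSeq), and capitals mark the seed, bases 2 to 8.
miR-200b-3p, chr4:156055685-156055706: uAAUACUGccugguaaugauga
miR-429-3p, chr4:156053916-156053937: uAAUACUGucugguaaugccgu
miR-200a-3p, chr4:156054911-156054932: uAACACUGucugguaacgaugu
The seed AAUACUG is shared by miR-200b-3p and miR-429-3p, and miR-200a-3p has AACACUG. The array does not measure these microRNAs.

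The promoters were searched for letters of the interferon-stimulated response element. RefSeq promoter windows of GRCm38.p6, 250 bases before to 50 after a transcription start, were matched for 24 of the 31 measured members, with 30 windows. The letters GAAA, then 2 bases of any kind, then GAAA again, on either strand, occurred in 13 of those 30 windows (43.3%), each of a different gene, against 3.44% of all 32851 windows. The letters TTCNNNGAA of a gamma-activated site, which read the same on both strands, occurred in 8 of the 30 (26.7%), against 8.3% of all windows. A match is only a description of the letters, and a member without a printed site may have had no window. The sites below are those of members described in detail, given 5′ to 3′ on the gene's strand, with capitals marking those letters or their reverse complement (in Bst2, 2 overlapping matches).
Ifih1, chr2:62646206-62646235, minus strand, bases 21 to 50 after the start: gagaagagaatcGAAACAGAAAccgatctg
Ddx58, chr4:40239804-40239833, minus strand, across the start: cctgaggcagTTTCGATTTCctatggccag
Stat2, chr10:128270266-128270295, plus strand: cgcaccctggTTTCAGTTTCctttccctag
Bst2, chr8:71537583-71537612, minus strand: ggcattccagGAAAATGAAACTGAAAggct
Gbp2, chr3:142620594-142620623, plus strand: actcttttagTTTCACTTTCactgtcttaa
Igtp, chr11:58199512-58199541, plus strand: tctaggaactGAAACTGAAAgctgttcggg

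The 200 bases before a start are also given for Ifit3, whose level was nearly the same on all arrays and which has 2 matches. They are given too for Ifi47, the member with the lowest adjusted p, which has no match in its window. These are 2 examples only. Of the members above, Ifih1, Ddx58 and Stat2 had groups that did not overlap, and Bst2, Gbp2 and Igtp had groups that did. The Ifit3 stretch lies inside the gene's listed span (chr19:34583119-34588982), so it precedes a start within that span.
Ifit3, chr19:34583329-34583528, plus strand: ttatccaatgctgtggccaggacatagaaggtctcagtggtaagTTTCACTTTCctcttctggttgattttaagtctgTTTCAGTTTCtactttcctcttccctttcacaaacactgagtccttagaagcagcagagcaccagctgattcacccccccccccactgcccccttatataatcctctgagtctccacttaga
Ifi47, chr11:49076387-49076586, plus strand: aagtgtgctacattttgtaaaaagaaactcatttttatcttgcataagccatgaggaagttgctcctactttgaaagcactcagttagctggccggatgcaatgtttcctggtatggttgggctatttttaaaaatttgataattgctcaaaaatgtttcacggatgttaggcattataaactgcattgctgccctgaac

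Values are log2 signals after quantile normalization, and a difference is miR-200 minus control on that scale with the standard error (SE) of the limma fit. The 6 epithelial markers, among them Cdh1, Krt8 and Krt18, had medians of 13.20 to 13.34 in miR-200 and 13.27 to 13.34 in control cultures. Outside the set, Esrp1 read 9.26 ± 0.37 in miR-200 and 2.95 ± 0.47 in control cultures (SD, n = 3 each, adjusted p = 0.00389). Cdh2 read 6.27 ± 0.21 in miR-200 and 10.17 ± 0.47 in control cultures (adjusted p = 0.00985), whereas Zeb1 differed by -1.08 without passing (adjusted p = 0.255). As a gauge of background, the highest reading of the bacterial trp control probe sets was taken, 5.28. The log2 summed signal of 9 leukocyte genes was 10.28 to 10.71 in miR-200 and 9.86 to 10.40 in control cultures. Per array, 4 or 5 of those 9 exceeded the gauge, and Lyz2, Siglech or Nkg7 was listed at 0 on some arrays of each group. The sum of 7 fibroblast genes was 8.60 to 8.76 in miR-200 and 8.55 to 8.66 in control cultures, and that of 5 endothelial genes 7.95 to 8.16 in miR-200 and 7.85 to 7.95 in control cultures.

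Among the arrays, miR-200 A and control B were unlike their group mates, which touches many values below. Their 11 cell cycle markers had medians of 8.17 (miR-200 A) and 8.08 (control B), against 11.43 and 11.45 on miR-200 B and C and 11.54 and 11.45 on control A and C. The macrophage marker Cd68 read 8.98 on miR-200 A and 8.87 on control B, and between 5.73 and 6.81 on the other 4 arrays. The other myeloid markers did not follow it. Itgam read 3.02 on miR-200 A and 3.13 on control B, against 3.73 and 4.54 on miR-200 B and C and 3.63 and 1.72 on control A and C. Csf1r lay between 9.89 and 9.94 in miR-200 and between 9.34 and 9.68 in control cultures, and Lyz2 was listed at 0 on miR-200 A and read 0.28 on control B. Ptprc, the pan-leukocyte marker, read 5.30 to 5.75 in miR-200 and 5.29 to 5.91 in control cultures. The part of cell cycle state, or of other cells, in the interferon results was not tested. The member counts and the members with separate groups are therefore also given without both arrays.

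Of the 31 measured members, 18 exceeded the gauge on all 6 arrays, 9 on some and 4 on none, while 68.3% of all genes exceeded it on all 6. The 4 that never exceeded the gauge were Mx1, Mx2, Oasl2 and Igtp, 2 of which (Mx2 and Igtp) were listed at exactly 0 on some arrays.

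**Figure D1:**
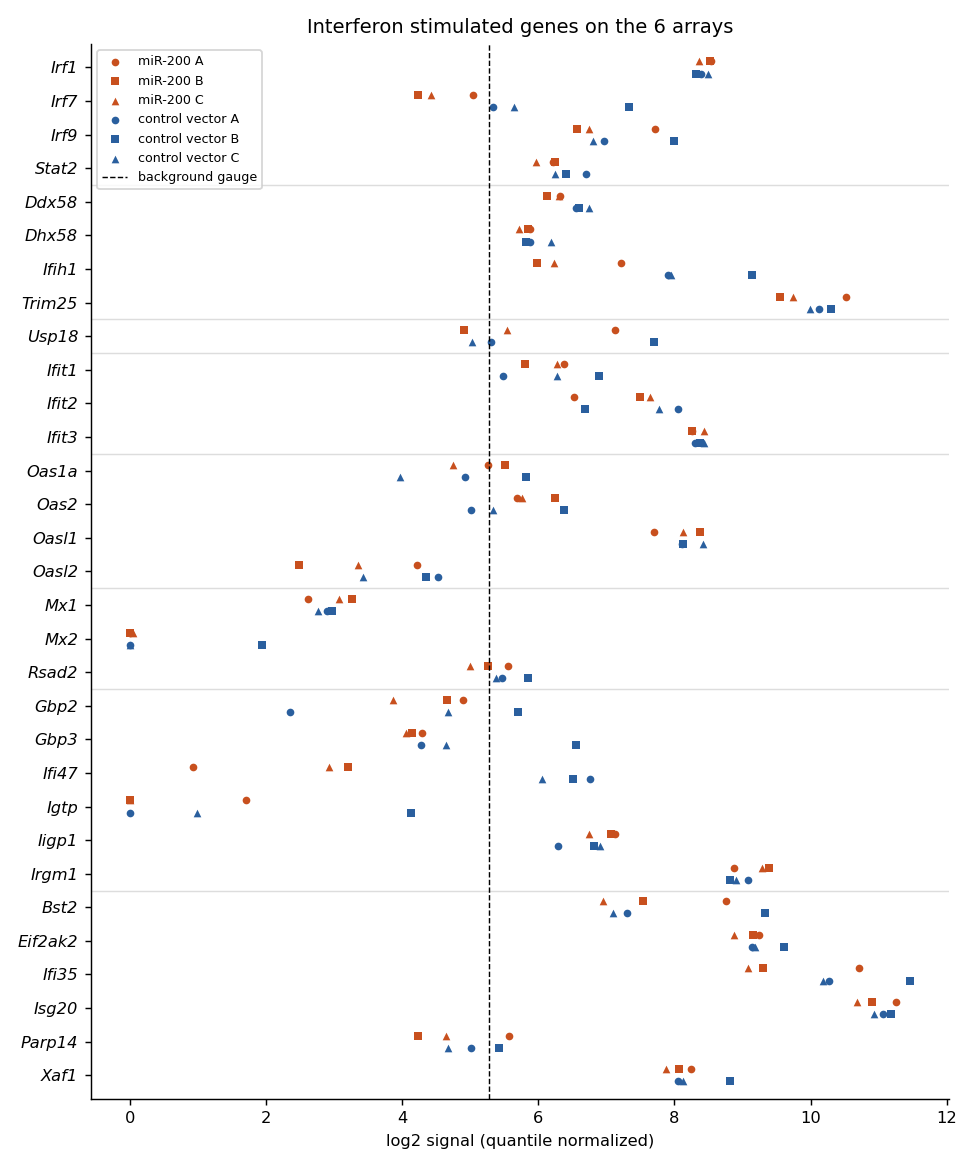
Log2 signal (x axis) of each of the 31 measured interferon stimulated genes (y axis, ordered by role, grey lines between roles) on the 3 miR-200 arrays (orange) and 3 control arrays (blue); circles, squares and triangles are cultures A, B and C and the dashed line is the background gauge of 5.28. Ifi47, Ifih1 and Irf7 have all orange points left of the blue ones, while most members have mixed points.

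No member passed the threshold. In limma 0 of 31 had an adjusted p under 0.05, where 0.945% of all genes did (172 of 18193). At an unadjusted p under 0.05, 4 members (12.9%) were lower (Ifi47, Ifih1, Irf7 and Ddx58) and 0 higher. Of all genes, 8.47% were lower and 6.35% higher at that level. Groups that did not overlap were found for 5 members with all miR-200 values below the control values, or 16.1%, against 12.1% of all genes; the fifth was Stat2. For 0 members did all miR-200 values lie above the control values, against 11.4% of all genes. The median difference was -0.22 over the members and 0.0014 over all genes, with 24 of 31 members below 0 against 49.5% of all genes.

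**Figure D2:**
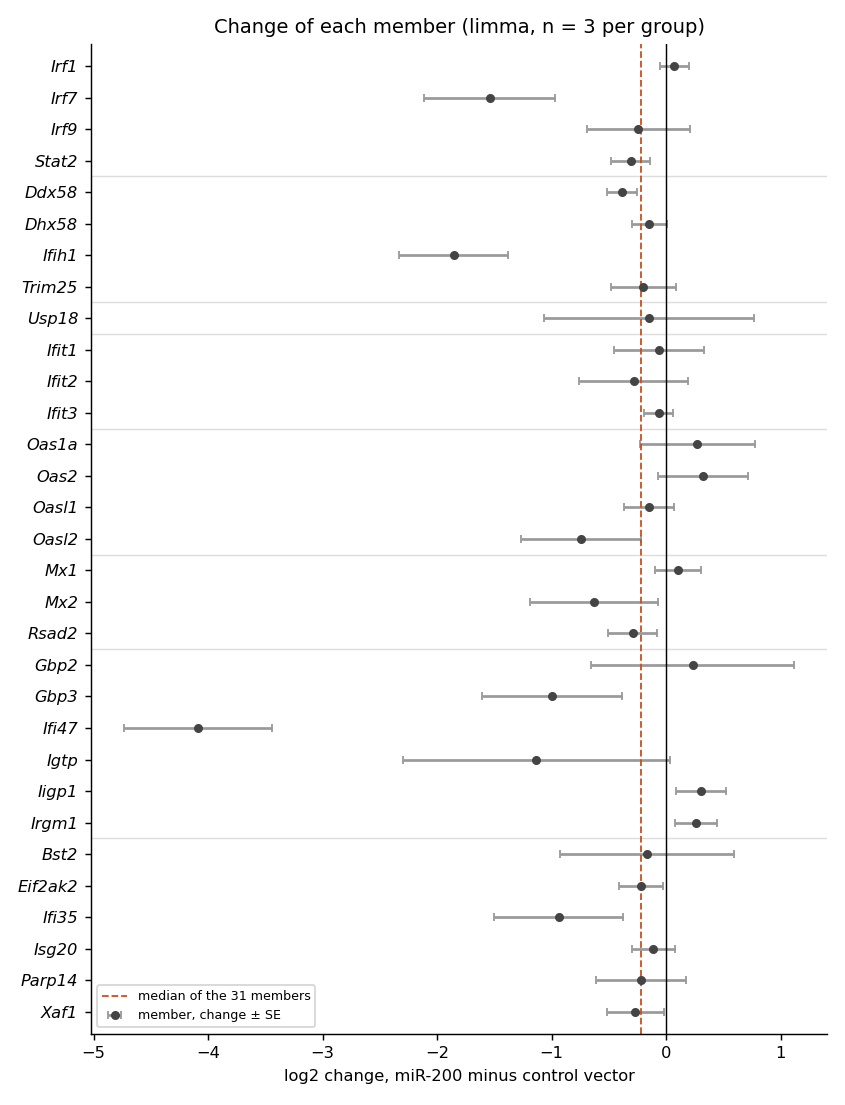
Log2 difference, miR-200 minus control vector (x axis), with the limma SE as bars for the 31 members (y axis, ordered by role); the dashed line is their median of -0.22. Ifi47 at -4.09, Ifih1 at -1.86 and Irf7 at -1.54 stand left of the rest, and 24 of 31 points lie below 0.

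The transcription factors of the response differed little, apart from Irf7. Irf7, the factor that amplifies type I interferon production (chromosome 7, 141263183 to 141266499), read 5.03, 4.24 and 4.42 on miR-200 A, B and C, against 5.34, 7.33 and 5.64 on control A, B and C. All 3 miR-200 values lay below the control values and below the gauge, and control B was well above the other controls. The difference was -1.54 ± 0.57 (log2 ± SE, at least 1.77-fold lower, adjusted p = 0.324). Without control B it was -0.93, and without both control B and miR-200 A it was -1.16, neither past the threshold (adjusted p = 0.306 and 0.115).

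Stat2, the STAT subunit of the interferon complex (chromosome 10, 128270498 to 128292853), read 6.22, 6.24 and 5.97 in miR-200 cultures, against 6.69, 6.41 and 6.25 in control cultures. The highest miR-200 value lay just under the lowest control value, and the difference of -0.31 ± 0.17 did not pass (adjusted p = 0.489; -0.37 without both arrays, adjusted p = 0.450). A second Stat2 probe set, under the gauge throughout, was listed at 0 on all miR-200 arrays and on control A. It read 1.90 on control B and 1.43 on control C (-1.11 ± 0.50, adjusted p = 0.398). With its probe sets averaged, Stat2 differed by -0.71 (adjusted p = 0.244). Irf9, the DNA-binding partner of Stat2, read 7.71, 6.57 and 6.75 in miR-200 cultures, against 6.96, 7.99 and 6.80 in control cultures. The groups of Irf9 overlapped, with the highest values on miR-200 A and control B (difference -0.24 ± 0.45). Irf1, the factor most directly induced by interferon gamma, lay between 8.36 and 8.54 in miR-200 and between 8.32 and 8.50 in control cultures, a difference of 0.07 ± 0.13.

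Among the sensors of viral RNA, Ifih1 stood out. Ifih1, which encodes the long double-stranded RNA sensor MDA5 (chromosome 2, 62595618 to 62646255), read 7.21, 5.99 and 6.23 on miR-200 A, B and C, against 7.90, 9.14 and 7.95 on control A, B and C. Every miR-200 value lay below every control value, and within each group the highest value came from miR-200 A or control B. The means were 6.48 ± 0.65 in miR-200 and 8.33 ± 0.70 in control cultures (SD, n = 3 each), a difference of -1.86 ± 0.48 or 3.62-fold lower (adjusted p = 0.192). With miR-200 A and control B left out the difference was -1.82 (adjusted p = 0.0699). With a 2-level term for those arrays, chosen after seeing the data, Ifih1 passed (adjusted p = 0.0184).

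Ddx58, which encodes the 5′-triphosphate RNA sensor RIG-I (chromosome 4, 40203777 to 40239825), read 6.32, 6.13 and 6.30 in miR-200 cultures, against 6.55, 6.60 and 6.75 in control cultures. The groups did not overlap, but the difference was small at -0.38 ± 0.13 (1.30-fold lower, adjusted p = 0.292), and -0.43 without both arrays (adjusted p = 0.237). A pair of dimmer probe sets, with means under the gauge in both groups, differed by -0.75 ± 0.41 and -1.21 ± 0.78 (adjusted p = 0.482 and 0.551). Dhx58, the regulatory helicase LGP2, read 5.72 to 5.88 in miR-200 and 5.82 to 6.19 in control cultures on its brightest probe set. A dimmer Dhx58 probe set, below the gauge throughout, read 2.29 to 2.91 in miR-200 and 3.21 to 3.48 in control cultures (adjusted p = 0.185). Trim25, the ubiquitin ligase of the RIG-I pathway, differed by -0.20 ± 0.28.

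**Figure D3:**
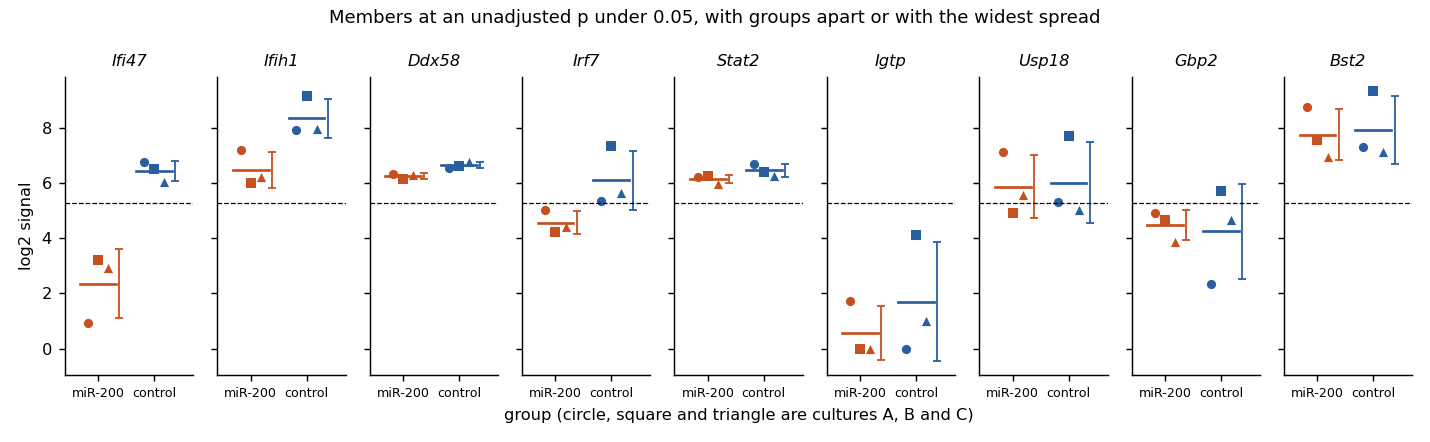
Log2 signal (y axis) of 9 members in miR-200 and control cultures (x axis); circles, squares and triangles are cultures A, B and C, horizontal bars are means, error bars are SD (n = 3) and the dashed line is the gauge of 5.28. In the first 5 panels the groups do not overlap; in the other 4 the spread within groups covers the difference between them.

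The immunity-related GTPases attack the vacuoles of intracellular parasites in the mouse. Among them, Ifi47, also called Irg-47 (chromosome 11, 49076587 to 49096987), read 0.92, 3.21 and 2.93 on miR-200 A, B and C, against 6.77, 6.50 and 6.05 on control A, B and C, with means of 2.35 ± 1.25 in miR-200 and 6.44 ± 0.36 in control cultures (SD, n = 3 each). All control values exceeded the gauge and all miR-200 values lay well below it. The difference was -4.09 ± 0.65, at least 2.24-fold lower when the miR-200 mean is set to the gauge, and the adjusted p = 0.0766 missed the threshold. Ifi47 passed with a variance trend and robust estimation (adjusted p = 0.0182), with array weights (adjusted p = 0.0291) and without miR-200 A (-3.37, adjusted p = 0.0334). Without both arrays it was -3.34 (adjusted p = 0.0840). Over the 14 alternatives that measured it, the adjusted p ranged from 0.0182 to 0.321 and its difference stayed below 0. With the groups apart, leaving out arrays could not have reversed that sign.

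Of the relatives of Ifi47, none passed. Irgm1, the regulatory GTPase of the family, read 8.88, 9.40 and 9.29 in miR-200 cultures, against 9.07, 8.81 and 8.90 in control cultures (0.26 ± 0.18, adjusted p = 0.597). Iigp1, an effector GTPase that oligomerises on the vacuole, lay between 6.75 and 7.12 in miR-200 and between 6.29 and 6.90 in control cultures (0.31 ± 0.22, adjusted p = 0.594). Igtp, or Irgm3, was under the gauge on all arrays. It read 1.71 on miR-200 A and was listed at 0 on miR-200 B and C, against 0, 4.12 and 0.99 on control A, B and C (-1.13 ± 1.16, adjusted p = 0.715), too dim to be compared. Irgm2, from the list of other induced genes, exceeded the gauge on control B alone (-0.74 ± 0.65, adjusted p = 0.666). No test of the difference between Ifi47 and its relatives was made.

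The guanylate-binding proteins, larger GTPases of the same defence, lay mostly under the gauge. Gbp2 read 4.90, 4.66 and 3.87 in miR-200 cultures, against 2.36, 5.70 and 4.68 in control cultures, so that the control cultures alone spanned more than the miR-200 cultures (0.23 ± 0.89, adjusted p = 0.940). Its second probe set differed by -0.96 ± 0.90, opposite in sign and also not past the threshold. Gbp3 read 4.05 to 4.30 in miR-200 cultures, against 4.28, 6.55 and 4.64 in control cultures. Control B alone exceeded the gauge, and the difference was -0.99 ± 0.61 (adjusted p = 0.533).

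Among the antiviral effectors that act on RNA and translation, the groups overlapped on the brightest probe set of every member. The 3 IFIT genes, whose products bind foreign RNA 5′ ends or the translation machinery, differed by -0.06 to -0.28. Ifit3 lay between 8.25 and 8.43 in miR-200 and between 8.31 and 8.44 in control cultures. Ifit2 was lowest on miR-200 A and control B (6.52 and 6.69), the reverse of the order in Irf9. Of the OAS family, which makes 2′-5′ oligoadenylates that activate RNase L, Oas1a and Oas2 differed by 0.27 ± 0.50 and 0.32 ± 0.40, and the related Oasl1 and Oasl2 by -0.15 ± 0.22 and -0.74 ± 0.53. Eif2ak2, which encodes the kinase PKR that halts translation, read 8.88 to 9.25 in miR-200 and 9.13 to 9.61 in control cultures (-0.22 ± 0.19). All 3 of its probe sets had differences below 0 and none passed. On its second probe set, the miR-200 values of 8.01, 7.96 and 7.67 lay below the control values of 8.02, 8.22 and 8.09, by little at the nearest pair (-0.23 ± 0.15, adjusted p = 0.551).

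Mx1, a dynamin-like GTPase that many laboratory mouse strains carry in a defective form, read 2.61 to 3.26 in miR-200 and 2.77 to 2.97 in control cultures. Mx2 was listed at 0 on 4 arrays and reached 1.94 on control B. The probe sets of Rsad2, the radical SAM enzyme viperin, disagreed in sign at -0.29 ± 0.21, 0.53 ± 0.25 and 0.32 ± 0.22, with none past the threshold. Together with Gbp2 it was the second of 2 members whose probe sets had opposite signs. Of the 17 further probe sets of members, 0 passed in limma and 1, the dimmer one of Dhx58 described above, had an unadjusted p under 0.05. It was lower in miR-200, as were 8.47% of all genes at that level on their brightest probe sets.

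Several members varied more between cultures of 1 group than between groups. Usp18, the protease that removes ISG15 from proteins and restrains the receptor, read 7.12, 4.90 and 5.55 on miR-200 A, B and C, against 5.30, 7.70 and 5.03 on control A, B and C. Bst2, the membrane tether known as tetherin, read 8.75, 7.53 and 6.96 in miR-200 cultures, against 7.30, 9.34 and 7.10 in control cultures. In both genes miR-200 A and control B were the highest arrays of their groups, and the groups overlapped widely (Usp18 -0.15 ± 0.92, Bst2 -0.17 ± 0.76).

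Ifi35, an adaptor of innate signalling, followed the same order with 10.70, 9.30 and 9.08 on miR-200 A, B and C, against 10.27, 11.46 and 10.18 on control A, B and C (-0.94 ± 0.57, adjusted p = 0.524). All 3 of its probe sets agreed, at -0.94, -0.86 and -0.83. The remaining effectors also had miR-200 A and control B highest in their groups. Their within-group SD was 0.32 (Xaf1), 0.55 (Parp14) and 0.22 (Isg20), against 0.80 for Ifi35, and Parp14 exceeded the gauge on 2 arrays only. Xaf1, a proapoptotic antagonist of XIAP, Parp14, an ADP-ribosyltransferase, and Isg20, an RNA exonuclease, differed by -0.27 ± 0.25, -0.22 ± 0.40 and -0.11 ± 0.19.

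Across the set, miR-200 A was the highest miR-200 array for 21 of 31 members and control B the highest control array for 20. Of all genes, the corresponding shares were 40.9% and 38.6%. Both held at once for 16 members (51.6%), against 23.4% of all genes. Both arrays were the lowest of their groups for 2 members (6.45%), against 23.5% of all genes. The median of the within-group SD was 0.55 over members and 0.27 over all genes. Without both arrays, 15 of 31 members had the remaining 2 miR-200 values below the remaining 2 control values, against 29.1% of all genes, and the median difference was -0.20. In that fit 0 members passed in limma, against 0.319% of all genes. At an unadjusted p under 0.05, 5 members were lower and 1 was higher, against 12.8% of all genes lower and 9.56% higher.

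**Figure D4:**
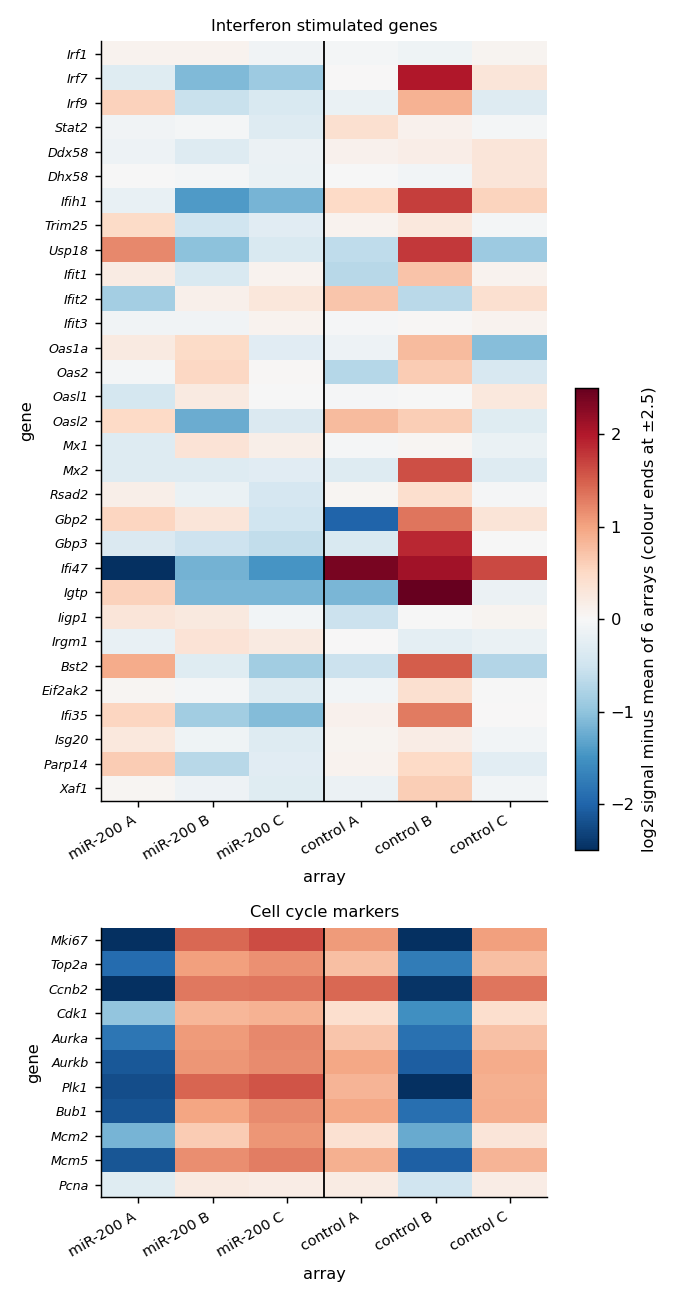
Log2 signal minus the mean of the 6 arrays (colour, red above and blue below, ending at ±2.5) for the 31 members (upper panel, y axis) and 11 cell cycle markers (lower panel) on the miR-200 and control arrays (x axis). Control B and miR-200 A have low cell cycle values and, for 16 members, the highest member value of their group; Ifi47 is below its mean on all 3 miR-200 arrays.

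Upstream of the set, the genes of interferon and its receptors showed no called difference. Of 7 interferon genes measured, 0 passed and 1 (14.3%) was lower at an unadjusted p under 0.05, Ifna2, which lay under the gauge on all arrays. Of all genes, 0.945% passed in limma, and 8.47% were lower and 6.35% higher at that unadjusted level. Ifnb1, the first type I interferon made by infected cells, lay between 6.59 and 6.84 in miR-200 and between 6.59 and 6.93 in control cultures. Of 10 receptor, kinase and STAT genes, 0 passed, and 2 (20%, against 8.47% of all genes) were lower at an unadjusted p under 0.05. Those were Ifngr2, a chain of the interferon gamma receptor (-1.02 ± 0.37, adjusted p = 0.319), and Il10rb, a chain shared with the interferon lambda receptor (-0.74 ± 0.29, adjusted p = 0.352). Ifngr1, the other gamma receptor chain, read 10.95 to 11.40 in miR-200 and 11.44 to 11.77 in control cultures (-0.44 ± 0.18, adjusted p = 0.358).

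The type I receptor chains Ifnar1 and Ifnar2 differed by 0.04 ± 0.29 and -0.29 ± 0.34. The kinases Jak1 and Tyk2 differed by 0.26 ± 0.14 and -0.27 ± 0.20. Of 11 sensing adaptors and kinases, 0 passed. At an unadjusted p under 0.05, 1 was higher (9.09%, against 6.35% of all genes) and 2 were lower (18.2%, against 8.47%). Tbk1, the kinase that activates IRF3, read 11.46, 10.86 and 10.97 in miR-200 cultures, against 10.40, 10.18 and 10.31 in control cultures (0.80 ± 0.20, adjusted p = 0.178). Its relative Ikbke differed by -1.02 ± 0.34 (adjusted p = 0.283) and the Toll-like receptor adaptor Myd88 by -0.42 ± 0.12 (adjusted p = 0.234). Of 9 negative regulators 0 passed. At an unadjusted p under 0.05, the phosphatase gene Ptpn6 was higher (0.53 ± 0.20) and the repressor gene Irf2 lower (-0.63 ± 0.24). That was 11.1% of the list in each direction, against 6.35% of all genes higher and 8.47% lower.

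A further 45 genes induced by interferon were measured, and 0 passed, with 2 higher (4.44%) and 6 lower (13.3%) at an unadjusted p under 0.05, against 6.35% and 8.47% of all genes. Lgals3bp, a secreted glycoprotein that binds galectins, read 9.35, 8.21 and 8.42 in miR-200 cultures, against 11.06, 11.04 and 10.93 in control cultures. The groups were well apart (-2.35 ± 0.32, 5.10-fold lower), and the adjusted p = 0.0539 missed the threshold narrowly. Phf11d read 5.43 to 7.14 in miR-200 cultures, against 8.97 to 9.34 in control cultures (-2.95 ± 0.45, adjusted p = 0.0717). Nmi, the partner protein of IFI35, differed by -0.75 ± 0.16 (adjusted p = 0.133). The median over the 45 genes was -0.14, and 32 differences were below 0.

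Cd274, which interferon also induces and which encodes PD-L1, the inhibitory ligand of PD-1 on T cells, read 7.61, 7.18 and 7.28 in miR-200 cultures, against 5.17, 6.93 and 5.78 in control cultures (1.40 ± 0.46, adjusted p = 0.278). B2m, the light chain of MHC class I in antigen presentation, differed by -0.14 ± 0.34.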

How the data were processed

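The deposited table holds log2 signals, 1 per probe set and array, of biotin-labelled cRNA on Affymetrix mouse arrays, per the labels' protocols; the authors' summarisation and normalization are not given in the sources used here. That the scale is log2 was read from the values. Medians of the 6 arrays spanned 0.0924 and interquartile ranges 0.174, and the arrays were then quantile normalized (limma 3.58.1, R 4.3.3). The labels name a chip with fewer probe sets than the 45101 in the table. The 64 control probe sets were left out, which left 45037. Symbols come from the platform annotation, updated by gene number to RefSeq GRCm38.p6; a probe set with several symbols was not used. The two-sided limma fit (lmFit, eBayes) held only the group, with Benjamini-Hochberg adjustment over all 45037 probe sets. A fold is "at least" where the dimmer mean was under the gauge. The precision is limited by 3 arrays per group. All members are accounted for. Those described in full had an unadjusted p under 0.05, groups that did not overlap, or the widest spread within groups. Of the other pathway lists, at most 3 genes by p were described beside a few fixed ones. Ifnb1, Irgm2, Cd274 and B2m were described outside that rule. The members and lists were chosen with earlier results of these data known. Alternatives were the deposited values, median centring, no dimmest 40%, probe sets averaged per gene, a robust variance trend, array weights, the replicate block and each array left out; 2 that treat control B and miR-200 A were added after seeing the data. Deviations of same-letter arrays correlated at -0.58, -0.67 and 0.43, which does not show pairing. Those of miR-200 A and control B, which differ in letter, correlated at 0.71. Figures were drawn with matplotlib 3.10.9.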

Additional observations from a re-analysis of the deposited data

How the results depend on the processing

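The count of members past the threshold was 0 with the deposited values, median centring, without the dimmest 40%, with probe sets averaged per gene, with the replicate block and without both unlike arrays, and became 1 with the variance trend, with array weights (Ifi47 each time) and with the 2-level term for control B and miR-200 A (Ifih1). Without 1 array it ranged from 0 to 1, the 1 being Ifi47 without miR-200 A. With the replicate block 0 of all genes passed in limma. In that fit 2 members were lower at an unadjusted p under 0.05 and 0 higher, against 5.99% of all genes lower and 3.46% higher. The number of members with all miR-200 values below the control values, 5, became 8 after centring (16.7% of all genes). It was 3 of 20 without the dimmest 40% (14.3% of all genes) and 15 without both arrays (29.1%). Without miR-200 A it was 13 (21.1% of all genes), and without any other single array 5 or 6 (14.9% to 19.5%). Of all genes, 172 (0.945%) passed in the main analysis, against 189 (1.04%) after centring and 268 (1.47%) with averaged probe sets. Without the dimmest 40% it was 476 of 12806 (3.72%). The number was 494 (2.72%) with the variance trend, 606 (3.33%) with array weights and 480 (2.64%) with the 2-level term. In each of those fits 1 of 31 members passed. It was 58 genes (0.319%) without both arrays and 16 to 185 (0.0879% to 1.02%) without 1 array. With fewer arrays, groups that do not overlap are easier to obtain, and fewer members were measured without the dimmest 40%. Why the counts differed beyond that was not tested. The median of -0.22 ranged from -0.36 to -0.048 without 1 array, and stayed below 0 in every alternative run. Ifi47, Ifih1, Ddx58, Irf7 and Stat2 kept their direction in every alternative that measured them. Their groups did not overlap, so leaving out arrays, weighting them or changing the variance model could not have reversed that direction. Gbp2 reversed to -0.36 with the mean of its probe sets, and Usp18 and Bst2 to 0.060 and 0.045 without both arrays. Without 1 array, Igtp ranged from -1.99 to 0.077, Usp18 from -0.78 to 0.69, Gbp2 from -0.71 to 0.96 and Bst2 from -0.67 to 0.55, none with a call. For 13 of 31 members at least 1 array lay under the gauge, which limits their folds.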
